A study of Mus musculus with 2 samples.

Results

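The actin and alpha-actinin genes make up 2 small families whose products build the filaments of every cell and the contractile lattice of muscle. The set described here is the 6 mouse actin genes (Actc1, Acta1, Acta2, Actg2, Actb and Actg1) and the 4 alpha-actinin genes (Actn1 to Actn4), chosen by family membership and found by identifier, 10 of 43346 Ensembl genes, with 41 of 103639 transcripts. RNA came from a single heart of each of 2 newborn mice (age 0 days) of the inbred strain B6NCrl, and the labels name no treatment and no engineered allele. Replicate 1 was pup 2 and replicate 2 was pup 3 of pregnancy 1, and both carry 1 donor identifier, so they were taken as separate littermates on the strength of the descriptions alone. There was 1 group (n = 2), and with 1 animal on each side of any contrast no test between animals was possible.

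Actin is a globular protein that assembles into filaments, and mammals carry sarcomeric, smooth muscle and cytoplasmic forms that differ at few amino acids, mostly near the amino terminus. In heart muscle the thin filaments are built of cardiac actin, and alpha-actinin-2 links their barbed ends across the Z disc, the border between neighbouring sarcomeres. Rodent hearts are known to also make skeletal and smooth muscle actin during development, while non-muscle alpha-actinins link filaments to adhesions and the cell cortex.

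The 6 actin genes sit on 6 chromosomes and are told apart in sequencing data by their bases, so the start of each coding sequence is shown, with capitals marking the bases that differ from Actc1 in an alignment of both coding sequences. Each line is 60 bases from the start codon, 5′ to 3′, read from the GRCm38 genome by the GENCODE M21 annotation.
Actc1: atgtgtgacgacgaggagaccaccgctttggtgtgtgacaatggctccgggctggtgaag
Acta1: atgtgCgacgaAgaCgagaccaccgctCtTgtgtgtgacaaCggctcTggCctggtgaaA
Acta2: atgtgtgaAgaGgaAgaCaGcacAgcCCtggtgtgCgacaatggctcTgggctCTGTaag
Actg1: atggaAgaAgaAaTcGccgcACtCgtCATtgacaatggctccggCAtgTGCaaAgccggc
Actg2: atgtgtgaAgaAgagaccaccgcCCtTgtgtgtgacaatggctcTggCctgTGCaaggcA
Actb: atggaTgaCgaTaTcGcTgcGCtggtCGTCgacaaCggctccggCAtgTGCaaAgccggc

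All 10 genes lie on the minus strand, and each window shown is coding exon. The 60 bases were Actc1 chr2:114051972-114052031, Acta1 chr8:123893638-123893697, Acta2 chr19:34252494-34252553, Actg1 chr11:120348032-120348091, Actg2 chr6:83527382-83527441 and Actb chr5:142905627-142905686. Acta1 differed from Actc1 at 9 of these bases and Actb at 19, and the count for Actg2 was 11, for Acta2 14 and for Actg1 17. Compared with Actc1, the cytoplasmic actins lack 2 codons near the start and Actg2 lacks 1, so the last bases of their windows belong to codons further along. The alpha-actinin genes are longer and span chr12:80167547-80260371 for Actn1, chr13:12269426-12340760 for Actn2, chr19:4861216-4877909 for Actn3 and chr7:28893248-28962340 for Actn4.

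Over whole coding sequences the 15 actin pairs were 82.0% to 88.6% identical, and the closest pair was the cytoplasmic Actg1 and Actb. The 6 alpha-actinin pairs were 74.6% to 80.5% identical, with the non-muscle Actn1 and Actn4 closest. The longest run of identical bases was 77 among actins, between Acta1 and Actb, and 65 among alpha-actinins, between Actn1 and Actn4. The deposited effective lengths lie a median of 99 bases below the lengths, so stretches of 100 bases were compared, and none in the main transcript of any of the 10 genes occurred in another of them.

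**Figure D1:**
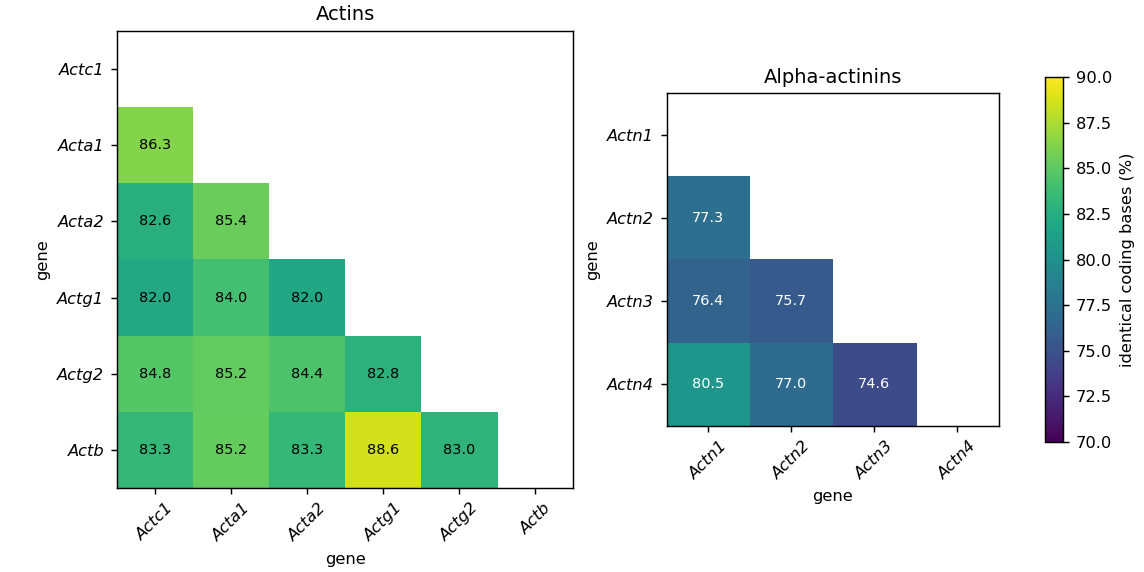
Percent of identical aligned coding bases for each pair of actin genes (left) and of alpha-actinin genes (right), 1 main transcript a gene. The 15 actin pairs lie between 82.0% and 88.6% and the 6 alpha-actinin pairs between 74.6% and 80.5%.

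The deposited processing shared reads that match several features out between them, and the posterior SD of a count shows how uncertain that share was. It was 0 for 7 of the 10 genes, all but Actb, Actg1 and Actn4. Both Actc1 and Acta1 were among these 7. None of the 10 exceeded 10% of its posterior mean count, a mark that 2.12% of genes with an average of 50 counts or more exceeded. In sequence, Actg1 and Actb were the members with windows of 100 bases found in other genes. For Actb these were 1.10% of its windows, shared with Gm15725 or Lrrc58. For Actg1, 51.1% of 1853 windows also occurred in 1 of 3 annotated pseudogene copies of it, Gm12715, Gm8399 or Actg-ps1. These copies together were given 3.89 TPM in replicate 1 and 3.81 TPM in replicate 2 (TPM, a level scaled by transcript length and library size), against 543.72 and 484.29 TPM for Actg1 itself. Whether reads of Actg1 were assigned to the copies, or the other way round, was not tested.

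Depth was 46151722 expected counts in replicate 1 and 44707283 in replicate 2, and 3 counts of a transcript of 1500 bases correspond to 0.0561 and 0.0567 TPM. Cardiomyocyte markers were high in both libraries, and their levels added up to 37010 and 36494 TPM. Detected here means 1 TPM or more in both pups. By that mark 6 of 6 cardiomyocyte markers were detected, against 54.5% of nuclear protein-coding genes. Markers of several other cells were closer to level: endothelial markers added up to 170 and 161 TPM, and fibroblast markers to 1214 and 1296 TPM. Macrophage markers added up to 74.61 and 83.25 TPM. Lung epithelium and blood markers were not level between the pups. Lung epithelium markers added up to 29.8 TPM for replicate 1 against 638 TPM for replicate 2, with no common direction: Scgb3a2 read 2.96 and 563 TPM, and Sftpc 25.5 and 0.34 TPM. Summed blood markers stood at 6034 and 3916 TPM. Their part in the results below was not tested, and in heart RNA fewer cells of a type and less RNA per cell cannot be told apart.

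Of the 10 genes, 9 were detected, against 54.5% of 21461 nuclear protein-coding genes. Only Actn3 fell short. From highest to lowest mean TPM the order was Actc1, Actb, Actn2, Acta2, Actg1, Acta1, Actn4, Actn1, Actg2 and Actn3. Neighbours in this order were called separated where the log2 ratio of TPM + 1 had 1 sign in both pups, its mean exceeded the difference between the pups, and the deposited credibility intervals overlapped in neither pup. By that rule 8 of 9 neighbouring pairs were separated. Acta1 and Actn4 were not, with a mean log2 ratio of 0.05 ± 0.007 (SD, n = 2).

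**Figure D2:**
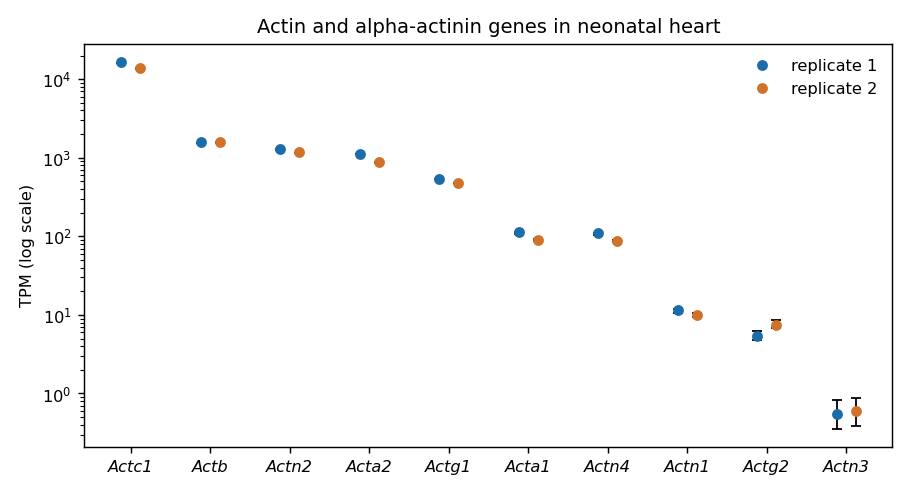
TPM on a log axis of the 10 genes in replicate 1 (blue) and replicate 2 (orange), ordered by mean; bars are the deposited credibility intervals, which lie around the posterior mean and are narrower than the symbols for most genes. Actc1 lies at 16412 and 13902 TPM, and Actn3 below 1 TPM in both pups.

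Actc1, the actin of heart thin filaments, had the highest mean TPM of all nuclear protein-coding genes (rank 1). Its level was 16412 TPM for replicate 1 against 13902 TPM for replicate 2, a mean of 15157 ± 1775 (SD, n = 2). It took 860340 and 720969 counts, 1.86% and 1.61% of each library. Actc1 was thus 10.5 and 8.73 times as abundant as Actb, the next of the 10, within each pup.

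Acta1, the actin of adult skeletal muscle, was detected at 113 and 90.6 TPM, a mean of 102 ± 16.0 (SD, n = 2). Per length it was lower than Actc1 by 145 times in replicate 1 and 153 times in replicate 2, and made 0.573% and 0.534% of all actin TPM. Skeletal muscle markers did not accompany it as a set: 4 of 12 were detected, against 54.5% of nuclear protein-coding genes. Myh4 was at 0 in both pups, and the fast myosin light chain Mylpf read 3.64 and 2.03 TPM. The light chain Myl1 held most of the summed 310 and 361 TPM. The sarcomeric pair Actc1 and Acta1 together made 83.6% and 82.5% of actin TPM.

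Acta2, the actin that defines vascular smooth muscle, was the fourth of the 10 genes, reading 1130 TPM for replicate 1 against 884 TPM for replicate 2, a mean of 1007 ± 173 (SD, n = 2). It was 14.5 and 15.7 times below Actc1. The other vascular smooth muscle and pericyte markers were far lower, and all 8 together summed to 166 and 157 TPM. Of these, 7 of 8 were detected, against 54.5% of nuclear protein-coding genes. The highest of them was Smtn, at 79.3 and 65.3 TPM. Among them the smooth muscle myosin heavy chain Myh11 stood at 2.44 and 2.25 TPM, transgelin (Tagln) at 32.3 and 38.2 TPM, and calponin (Cnn1) at 20.3 and 21.7 TPM. Acta2 alone therefore exceeded the sum of the 8 markers in each pup. Lmod1, a leiomodin that nucleates actin filaments in smooth muscle, was at 0.97 and 0.96 TPM, under the detection mark.

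Actg2, the actin of gut and other visceral smooth muscle, was detected at 5.34 and 7.49 TPM, a mean of 6.42 ± 1.52 (SD, n = 2), from 246 and 347 counts. It was the less abundant smooth muscle actin by 212 times in replicate 1 and 118 times in replicate 2. Of 4 genes that accompany it in visceral muscle, 2 were detected, against 54.5% of nuclear protein-coding genes. Des stood at 486 and 454 TPM and Cnn1 at 20.3 and 21.7 TPM, while Synm and Lmod1 fell short. Cnn1 and Lmod1 are also on the vascular list above. Together Acta2 and Actg2 held 5.74% and 5.26% of actin TPM.

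The cytoplasmic actins, which form the cortex and stress fibres of all cells, together came next to cardiac actin in abundance, though Actg1 alone lay below Acta2. Actb stood at 1569 and 1592 TPM, a mean of 1581 ± 16.3 (SD, n = 2), the smallest spread relative to its mean of the 10 genes. Actg1 stood at 544 and 484 TPM, a mean of 514 ± 42.0 (SD, n = 2). Actb exceeded Actg1 by 2.89 and 3.29 times within the pups, and both together made 10.7% and 12.2% of actin TPM. All 6 actins held 1.98% and 1.70% of all TPM, a mean of 1.84% ± 0.199, and Actc1 alone held 82.5% ± 0.733 of the actin part (SD, n = 2 for each).

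Among the alpha-actinins, Actn2, the sarcomeric form of heart and skeletal muscle, stood at 1292 and 1177 TPM, a mean of 1235 ± 81.1 (SD, n = 2). It held 91.4% and 92.3% of alpha-actinin TPM. Actn3, the form of fast skeletal fibres in adult muscle, read 0.55 and 0.60 TPM from 39 and 40 counts, so that Actn2 was 2349 and 1962 times higher. The 2 sarcomeric forms thus stood at the opposite ends of their family.

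Actn4, a non-muscle form found at adhesions and the cell cortex, stood at 110 and 87.1 TPM, a mean of 98.3 ± 15.9 (SD, n = 2). Actn1, the other non-muscle form, was lower at 11.5 and 9.98 TPM, a mean of 10.7 ± 1.05 (SD, n = 2). Within each pup Actn4 exceeded Actn1 by 9.56 and 8.72 times. Actc1 exceeded Actn2 by 12.7 and 11.8 times, which sets the main thin filament actin beside the main Z disc cross-linker. The counts of Actn4 overlap those of an opposite-strand gene only in part: of the 6127 exon bases of Actn4, 316 are shared with Capn12, which took 7.99 and 4.54 counts, against 11959 and 9691 for Actn4.

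The deposited transcript tables gave counts to 36 of the 41 transcripts, and 18 held 5% or more of their gene in either pup. For 9 of the 10 genes the pups shared their main transcript. Of 7 genes among them with more than 1 transcript and at least 5 TPM in both pups, 7 kept it, and so did 94.6% of all 6445 such genes. Acta1 and Acta2 have 1 transcript each, and Actc1-201 held 99.98% and 99.97% of Actc1. Actb-201 held 95.85% and 97.27% of Actb.

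**Figure D3:**
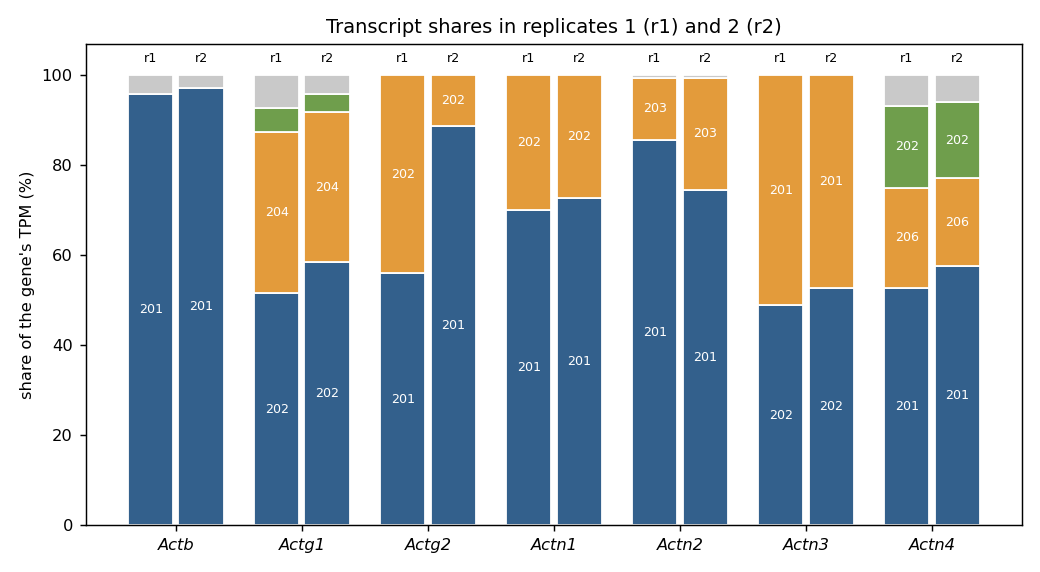
Share of each gene's TPM (%) taken by its transcripts in replicate 1 (left bar) and replicate 2 (right bar); labels in bars are the transcript suffixes, and grey is the sum of transcripts under 5%. The bars differ most between pups for Actg2, where Actg2-201 holds 56.01% and 88.86%.

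Actg1 was split between Actg1-202, at 51.57% and 58.44%, and Actg1-204, at 35.82% and 33.36%. Both have 1125 annotated coding bases and differ before the start codon. Whether these coding sequences are identical was not compared. Retained-intron transcript Actg1-207 held 5.34% and 4.08% by TPM, and 2.43% and 1.81% by counts. Transcripts not annotated as protein-coding took 12.34% and 7.96% of Actg1 TPM in all, and 6.23% and 3.79% of its counts.

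Actn2 was split in the same manner. Actn2-201 stood at 1106 and 877 TPM, with credibility intervals of 1041 to 1204 and 836 to 968 that lay apart between the pups. Actn2-203 stood at 180 and 295 TPM, with intervals of 60.8 to 228 and 183 to 317 that overlapped. Both have 2682 annotated coding bases and differ in the splicing of the 5′ untranslated part. Whether their coding sequences are identical was not compared.

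Actn1 and Actn4 each have a pair of transcripts with mutually exclusive coding exons, printed here because these exons define the known non-muscle and smooth muscle forms of Actn1 and the alternative actin-binding domains of Actn4. Capitals mark the exon, and 15 lower-case bases of the neighbouring exons flank it.
Actn1-201: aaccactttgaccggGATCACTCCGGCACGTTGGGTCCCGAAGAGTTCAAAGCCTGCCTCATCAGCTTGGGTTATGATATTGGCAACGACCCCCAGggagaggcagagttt
Actn1-202: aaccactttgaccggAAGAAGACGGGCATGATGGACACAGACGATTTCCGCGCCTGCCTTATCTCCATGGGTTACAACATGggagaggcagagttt
Actn4-201: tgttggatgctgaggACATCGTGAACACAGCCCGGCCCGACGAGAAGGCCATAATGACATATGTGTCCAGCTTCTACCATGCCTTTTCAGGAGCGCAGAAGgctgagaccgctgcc
Actn4-202: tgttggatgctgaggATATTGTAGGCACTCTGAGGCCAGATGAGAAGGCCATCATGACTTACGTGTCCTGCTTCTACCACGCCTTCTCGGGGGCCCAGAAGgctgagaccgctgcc

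The Actn1 exons are the 81 bases chr12:80170686-80170766 in Actn1-201 and the 66 bases chr12:80170183-80170248 in Actn1-202, exon 19 of 21 in each. The longer exon belongs to the non-muscle form, whose calcium-binding EF hand it completes, and the shorter to the smooth muscle form. Actn1-201 held 70.16% of Actn1 TPM in replicate 1 and 72.81% in replicate 2, and Actn1-202 held 29.84% and 27.19%. The intervals of the 2 forms were apart in both pups, and each form overlapped between the pups. By counts rather than TPM the smooth muscle exon form held 23.1% and 20.8%. Actn1-202 is 2664 bases long with 2661 coding bases, so its model holds almost no untranslated sequence at either end. Actn1-201 is 3739 bases long with 2676 coding bases. The share of Actn1-202 therefore does not rest on the alternative exon alone.

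The Actn4 exons are 86 bases each, chr7:28911490-28911575 in Actn4-201 and chr7:28909903-28909988 in Actn4-202, exon 8 in both. Actn4-201 held 52.79% and 57.52% of Actn4 TPM. Actn4-202, an incomplete model of 13 exons, held 18.22% and 16.79% by TPM, and 9.53% and 8.51% by counts. The processed transcript Actn4-206, which has no annotated reading frame, held 22.25% and 19.71%. In all, 26.48% and 23.80% of Actn4 TPM lay in noncoding models, and 20.1% and 17.4% of its counts.

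The 2 lowest genes had no settled main transcript. Actg2-201 held 56.01% in replicate 1 and 88.86% in replicate 2. Actg2-202, which starts at another exon and has the same number of coding bases (1128), held 43.99% and 11.14%. The credibility intervals of these 2 transcripts overlapped within both pups, and the posterior SD of the count of Actg2-202 was 45.5% and 61.0% of its mean. Actn3 was the gene whose main transcript differed: the coding Actn3-201 held 51.11% and 47.26%, and the retained-intron Actn3-202 held 48.89% and 52.74%, also with overlapping intervals. By counts Actn3-201 held 76.7% and 73.9% and was the main transcript of both pups, and by posterior mean shares Actn3-202 was, so either alternative ends this difference.

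Differences between the pups were taken as the log2 ratio of scaled counts, replicate 2 minus replicate 1. None of the 9 members with an average of 50 counts or more reached an absolute log2 ratio of 1, a size that 0.498% of 13463 such genes reached. The median of the members' absolute ratios was 0.22, and that of all 13463 genes was 0.10. The signed medians were -0.17 and -0.001.

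Actg2 had the most positive ratio at 0.52, a value whose size 2.93% of genes equalled or exceeded. Acta2 had the most negative at -0.34, which 9.20% of genes equalled or exceeded in size, followed by Acta1 at -0.31, Actn4 at -0.27 and Actc1 at -0.22. The ratios of Actn1, Actn2 and Actg1 were -0.17, -0.12 and -0.11, and that of Actb was 0.05. The smooth muscle actins thus differed between the pups in opposite directions. Every ratio kept its sign under the 5 scalings run (TMM, DESeq2 size factors, library totals, spike-ins and TPM + 1). All but TPM + 1 shift every gene by about the same amount, so only ratios near 0 could have changed sign. The spike-in scaling rested on only 262 and 246 counts. It gave -0.05 for Actg1, -0.06 for Actn2, -0.11 for Actn1, 0.11 for Actb and 0.12 for Actn3. The signs of these small ratios are therefore not settled by that scaling.

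**Figure D4:**
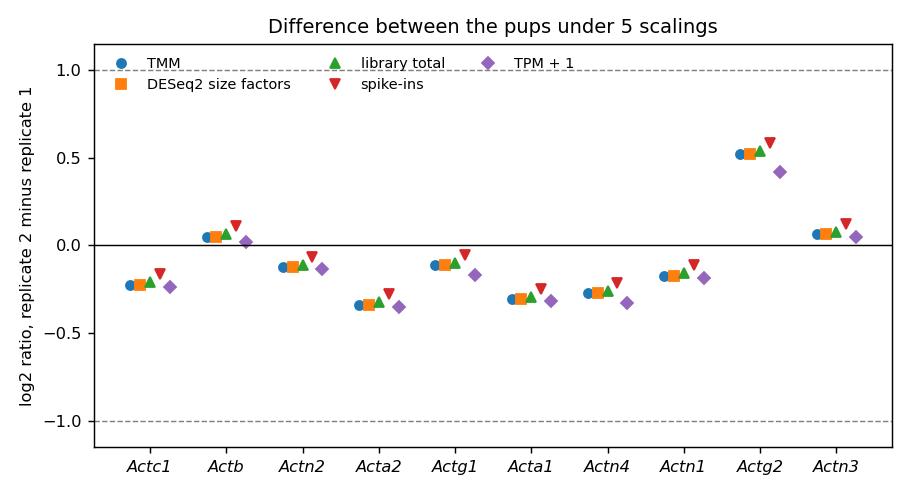
Log2 ratio between the pups, replicate 2 minus replicate 1, of the 10 genes under 5 scalings (symbols), ordered by mean TPM; dashed lines mark ratios of 1 and -1. No symbol crosses a dashed line, and Actg2, at 0.52 under TMM, is the highest.

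Credibility intervals, which reflect counting and read sharing but not variation between animals, were apart between the pups for 9 of the 10 genes. Replicate 2 was lower for 7 of them (Actc1, Acta1, Acta2, Actg1, Actn1, Actn2 and Actn4), as for 10.6% of genes with an average of 50 counts or more. Replicate 2 was higher for Actg2 and Actb, as for 7.07% of those genes. Intervals narrow with depth: among genes averaging 1000 counts or more, 17.4% were apart and lower and 10.1% apart and higher, and the 8 members at that depth counted 7 and 1. For Actc1 the intervals were 16130 to 16201 TPM and 13658 to 13724 TPM.

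Marker lists of other cell types were set beside these ratios. The 8 vascular smooth muscle and pericyte markers had a median log2 ratio of -0.04, with 4 of 8 below 0. They ranged from -0.20 for Smtn to 0.26 for Tagln, against -0.34 for Acta2 and 0.52 for Actg2. The 6 cardiomyocyte markers also had a median of -0.04, with 3 of 6 below 0 and a range from -0.31 for Myh6 to 0.36 for the atrial light chain Myl7. The 5 blood markers had a median of -0.63, with 4 of 5 below 0, Slc4a1 lowest at -1.27 and Ptprc highest at 0.07; their part in the lower ratios of 7 members was not tested. Lung epithelium markers differed between the pups as given above, and their part in the ratio of Actg2 was not tested.

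Actin genes are classical targets of serum response factor, which binds the CArG box. This motif, a run of A and T between paired C and G bases, was searched on both strands in RefSeq promoters (GRCm38.p6). The windows ran from 250 bases before to 50 bases after the start. Only the exact form CCWWWWWWGG (W, A or T) was counted, so looser forms were missed. The exact form occurred for 3 of the 7 genes with an entry, and in 1.63% of all 32851 windows. It lay 47 bases before the start of Actc1, 73 before that of Acta1 and 90 before that of Actg1. Acta2, Actn1, Actn2 and Actn4 had no exact match, and Actb, Actg2 and Actn3 had no entry. The promoters of the sarcomeric actins are printed because both hold the box while their transcripts differed by 145 and 153 times in level. They are the 250 bases before the start, chr2:114052876-114053125 and chr8:123894776-123895025 on the minus strand, with the box in capitals.
Actc1 promoter: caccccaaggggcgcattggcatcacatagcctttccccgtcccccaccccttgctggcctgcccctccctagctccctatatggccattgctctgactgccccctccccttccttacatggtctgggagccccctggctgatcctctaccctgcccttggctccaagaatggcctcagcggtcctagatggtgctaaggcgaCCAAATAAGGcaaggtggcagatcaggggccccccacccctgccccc
Acta1 promoter: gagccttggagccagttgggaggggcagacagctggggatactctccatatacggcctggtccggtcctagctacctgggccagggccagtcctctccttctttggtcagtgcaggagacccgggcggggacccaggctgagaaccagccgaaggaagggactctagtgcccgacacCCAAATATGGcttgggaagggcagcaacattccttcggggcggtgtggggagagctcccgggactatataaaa

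Of the serum response factor circuit, 10 of 12 genes on the list were detected, against 54.5% of nuclear protein-coding genes. They were led by Fhl1 at 141 TPM, Nkx2-5 at 111 TPM and Gata4 at 53.7 TPM. Srf itself stood at 5.35 and 3.53 TPM, below these 3 genes and above the median of 1.985 TPM for all nuclear protein-coding genes. The log2 ratio of Srf was -0.58. Its cardiac and smooth muscle coactivator Myocd was at 42.1 and 41.7 TPM. No gene of the list with an average of 50 counts or more reached an absolute log2 ratio of 1.

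Genes for actin monomer binding and filament turnover had a high median, though single levels reached down to 1.81 TPM for Limk1. All 21 of 21 listed genes were detected, against 54.5% of nuclear protein-coding genes. Their median was 46.5 TPM, against 1.985 TPM for all nuclear protein-coding genes. They were led by the monomer-sequestering thymosins Tmsb4x at 1584 TPM and Tmsb10 at 998 TPM and the profilin Pfn1 at 696 TPM. Tmsb4x was thus at the level of Actb. The median log2 ratio of the list between the pups was 0.01.

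Nucleators, which start new filaments, were detected for 18 of 22 entries, against 54.5% of nuclear protein-coding genes. Their median was 34.3 TPM. The Arp2/3 complex members Arpc2 at 284 TPM, Actr3 at 204 TPM and Arpc4 at 152 TPM led them. The cardiac formin Fhod3 stood at 26.0 TPM and its relative Fhod1 at 0.54 TPM. Genes of capping and cross-linking proteins were detected for 14 of 15, against the same 54.5%, with a median of 34.3 TPM. They were led by the capping protein subunits Capzb at 273 TPM, Capza2 at 166 TPM and Capza1 at 71.2 TPM.

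Partners of alpha-actinin at the Z disc had the highest median of the lists, 152 TPM. Of these, 19 of 21 were detected, against 54.5% of nuclear protein-coding genes. Csrp3, a muscle LIM protein, led at 1418 TPM, above Actn2 itself, followed by the small heat shock protein Cryab at 914 TPM and Fhl2 at 797 TPM. The giant spring protein titin (Ttn) stood at 508 TPM. Of the calsarcins, Myoz2 stood at 434 TPM, Myoz1 at 8.28 TPM and Myoz3 was listed at 0, and myotilin (Myot) read 0.805 TPM.

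Actin-like and actin-related genes outside the 6 actins were detected for 8 of 18, against 54.5% of nuclear protein-coding genes. Of these 18, 7 were listed at 0 in both pups. Those detected were led by the dynactin subunits Actr1a at 87.2 TPM and Actr1b at 51.0 TPM and the chromatin remodelling subunit Actl6a at 42.5 TPM. Spectrin relatives of alpha-actinin were detected for 7 of 11, against the same 54.5%. They were led by Sptbn1 at 90.6 TPM, Sptan1 at 41.4 TPM and Macf1 at 30.2 TPM. Their median log2 ratio between the pups was -0.17, with 8 of 8 genes at an average of 50 counts or more below 0. Genes of enzymes that modify actin were detected for 5 of 5, against the same 54.5%. They were led by the oxidising Mical2 at 51.0 TPM, the histidine methyltransferase Setd3 at 42.0 TPM and Mical1 at 26.0 TPM. Their median log2 ratio was -0.22, with 4 of 5 below 0. For comparison, 16 of 22 nucleators lay below 0, with a median of -0.06. The counts were 14 of 20 for Z disc partners, 9 of 14 for capping and cross-linking and 5 of 8 for actin-like and actin-related genes. Other lists leaned the other way, with 9 of 21 turnover genes and 3 of 11 of the serum response factor circuit below 0. The median of all 13463 genes was -0.001, and no list was tested against it.

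**Figure D5:**
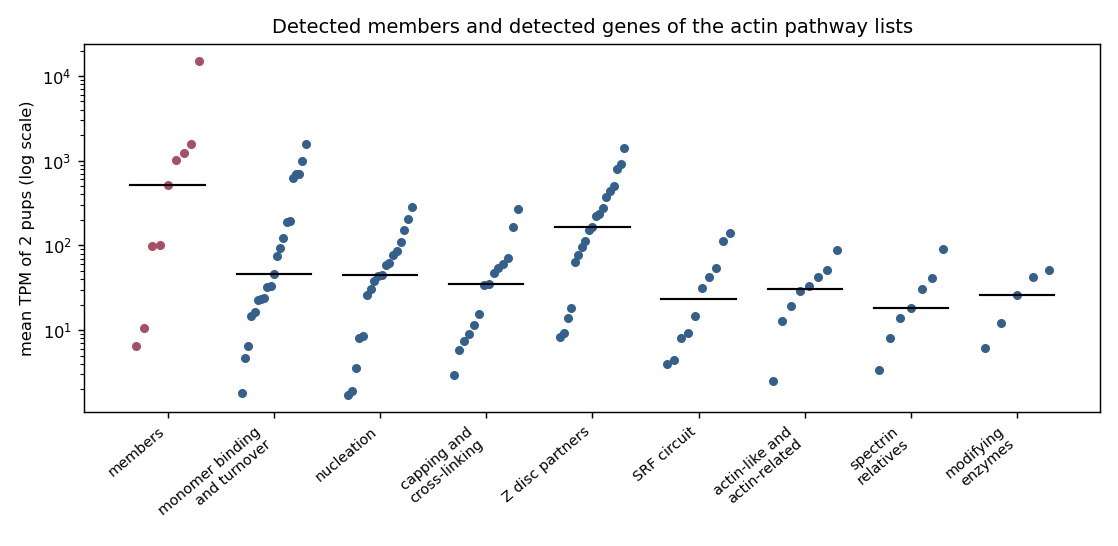
Mean TPM over both pups, on a log axis, of the detected actin and alpha-actinin genes (left) and of the detected genes of 8 pathway lists; each point is 1 gene and the line is the median of the detected genes. The 9 detected members have a median of 514 TPM, and among the lists the Z disc partners have the highest, at 164 TPM.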

How the data were processed

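RNA above 200 bases from 2 mouse hearts was used, with 10 ng per library, per the labels. The authors deposited a gene and a transcript table per library, quantified on mm10 with GENCODE M4, per the deposited read-me; the column names are those of RSEM. The aligner, its version and the use of strand in counting were not given in the sources used. The deposited expected counts are estimates of the reads of each gene or transcript. The deposited TPM values are counts over effective length, brought to a fixed total; the deposited FPKM values are scaled by length and total reads. The deposited credibility bounds are a signal in TPM units, and the files do not state their width; they lie around the posterior mean, and the deposited TPM exceeded the upper bound in both libraries for 5 members. The deposited percent column is a transcript's share of its gene.

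Symbols and coordinates came from GENCODE M21 (GRCm38), which left 884 of 43346 genes unmatched. Ratios between the pups used expected counts, TMM scaling and a prior count of 2. The scaling came from edgeR 4.0.16 (R 4.3.3) on counts rounded to whole numbers, and the ratios used unrounded counts. The ratio calculation was tested on simulated data. A gene was detected at 1 TPM or more in both libraries. Coding sequences were aligned pairwise, and shared stretches were counted in words of 31 and windows of 100 bases. Other steps used numpy 2.4.6 and pandas 2.3.3 under Python 3.11.15.

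The members, lists and rules were chosen with earlier results of these data known. All members are named, all transcripts at 5% or more, pseudogenes sharing 50% or more of their words, and the 3 most abundant genes of each list; Srf, Myocd, Fhod1, Fhod3, Ttn, Myoz1, Myoz2, Myoz3, Myot, the single marker genes and the summed classes of smaller transcripts were named after their values were seen, as was the count minimum of 1000. Alternatives were other scalings, units, pseudocounts, filters and thresholds, and each replicate left out. With 1 group no p-value is given.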

Additional observations from a re-analysis of the deposited data

How the results depend on the processing

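The 6-actin share of the total moved from 1.84% of TPM to 2.20% of expected counts not divided by length, and to 2.11% of TPM without mitochondrial genes and spike-ins. The Actc1 share of the actins moved from 82.5% of TPM to 78.9% of expected counts. At a ratio threshold of 0.5 in place of 1, 1 member (Actg2) differed between the pups in place of 0, and 456 genes in place of 67; with the ratio of TPM + 1 the gene count was 39, and with no filter on counts 1923. The other 37 recomputed values of the main results stayed within 1 SD or 1.5 times of the value reported, leave-one-out included, and none reversed. Among these, the members with the same main transcript went from 9 to 10 by posterior mean percent and by counts, so that the difference of Actn3 was lost. Among the recomputed values for single members 100 stayed so, 20 moved by more and none changed sign. With 2 pups, leaving out either keeps a mean within 1 SD by arithmetic. The leave-one-out values of levels and shares in both counts therefore could not move, and they say nothing about stability. Leaving out a replicate leaves no ratio between the pups, so this was not run. No paired analysis was possible because there is 1 group. Depth limits Actn3 (39 and 40 counts). For the transcripts of Actg2, the posterior SD gives the uncertainty of sharing reads.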
